A study of Homo sapiens with 6 samples.

Results

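WT5 and WT2 are 2 clones of DLD-1, a human colorectal cancer cell line that grows as an epithelium, and this comparison asks how far their messenger RNA differs when both are treated alike. It uses 4 of the 6 libraries of the series, namely all whose names hold WT5 or WT2. All 6 carry the label ZEB2 WT, and each clone gave 1 library without DOX (doxycycline, by its common abbreviation) and 1 with it. The descriptions of all 6 also hold TR21 after the name of the cell line, and its meaning is not given. Cells without DOX are labelled epithelial and cells with DOX mesenchymal. Another clone, WT37, has the same genotype label and the same pair of treatments, and served as a reference level alone. ZEB2, named in the series title, is a zinc finger repressor of epithelial genes. Each side is 1 clone, and the labels do not say whether its libraries came from separate cultures. Every difference below is therefore between these clones. With 1 library of each clone in each treatment, no spread within a clone and treatment was measured. The p-values rest on how far the clone difference varied between the treatments in these 4 libraries, with information shared across genes. Genes on the X and Y chromosomes were left out by the rule of the comparison, as were rows that the annotation did not place.

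A clone grows from a single cell, so clones of a cancer cell line can carry different levels of a gene from their founders onward, besides what culture adds. Several of the genes described below belong to the amino acid response, a program for shortage of amino acids and for other stresses. Its transcription factor ATF4 pairs with C/EBP family proteins and binds an element with the core TGATGNAA (N is any base) near genes for amino acid synthesis and uptake, and ATF4 protein is made more when general translation slows.

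The promoters of ASNS and CHAC1 are shown because both genes were called higher in WT5 and both windows hold that core. The sequences are the 250 bases before the RefSeq start of each gene (build GRCh38.p14), written 5′ to 3′ on the strand of the gene, with the match in capitals. ASNS lies at chr7:97872409-97872658 on the minus strand, and its match begins 68 bases before the start. CHAC1 lies at chr15:40953221-40953470 on the plus strand, and there the core is read on the other strand, as TTNCATCA, 209 bases before the start.
ASNS: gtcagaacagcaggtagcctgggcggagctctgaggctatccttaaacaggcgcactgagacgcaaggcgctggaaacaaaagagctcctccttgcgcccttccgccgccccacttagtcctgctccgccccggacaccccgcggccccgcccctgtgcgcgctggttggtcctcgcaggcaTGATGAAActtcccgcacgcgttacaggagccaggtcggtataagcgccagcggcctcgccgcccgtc
CHAC1: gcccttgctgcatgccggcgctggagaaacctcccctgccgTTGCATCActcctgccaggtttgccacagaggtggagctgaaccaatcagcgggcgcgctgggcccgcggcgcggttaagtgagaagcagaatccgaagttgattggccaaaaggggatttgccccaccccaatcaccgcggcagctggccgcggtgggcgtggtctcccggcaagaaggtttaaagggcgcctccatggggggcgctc
In windows of 250 bases before to 50 bases after the start, searched on both strands, the core was found in 1270 of 35116 RefSeq promoters (3.62%). It was found in 5 of the 20 tested members of the amino acid list that had a promoter entry (ASNS, ATF3, CHAC1, SLC3A2 and SLC7A1), and in 2 of the 9 members that passed the test. The share of all promoters counts every entry, whether or not its gene was tested, and the list counts 1 entry per tested gene. These shares are therefore over unlike sets. The matches of SLC3A2 and SLC7A1 lie 37 and 7 bases after the start. A match is a run of letters in a window and not a shown binding site.

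The WT2 libraries held 5440093 (without DOX) and 6234798 (with DOX) reads in genes, and the WT5 libraries 6053671 and 7072289. Levels are given as CPM (each count divided by the reads in genes and scaled to a common total) after TMM scaling, a correction for library composition, and each set of 2 values lists the library without DOX first. Of 14 colon epithelium markers, 13 had reads, and their summed level was 5776 to 8611 CPM in the 4 libraries, led by KRT18, KRT8, KRT19, EPCAM and CDH1; CDX1 was at 0 in all 4. Of 14 autosomal markers of other cell types, LYZ, COL1A2, COL3A1, LUM and PECAM1 were at 0 in all 4 libraries and 12 had at most 10 reads in each. Their summed level was 6.93 and 6.90 CPM in WT2 and 13.1 and 13.4 CPM in WT5, and most of the reads were of CD14. Its part in the differences below was not tested. ZEB2 had 9 and 20 reads in WT2 and 5 and 9 reads in WT5, or 1.73 and 3.29 CPM against 0.830 and 1.28 CPM. Both WT5 libraries were below both WT2 libraries, but the 95% Poisson intervals of WT2 without DOX (0.793 to 3.29 CPM) and WT5 with DOX (0.586 to 2.43 CPM) overlapped, and the difference did not pass (log2 fold change -1.23 ± 0.58 SE, edgeR adjusted p = 0.489). The library kit reads transcript ends, so an introduced coding sequence without the natural end of ZEB2 would not be counted.

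Of 11227 autosomal genes tested, 80 were higher and 49 lower in WT5 than in WT2, which together is 1.15% of the genes tested (0.713% higher and 0.436% lower; edgeR's quasi-likelihood test with DOX as a covariate, Benjamini-Hochberg adjusted p under 0.05). An unadjusted p under 0.05 was reached by 1122 genes. The difference was over 2-fold for 85 of the 129, of which 53 were higher and 32 lower, and over 4-fold for 26, with a median size of 1.20 on the log2 scale. In these bulk libraries, fewer cells with a gene active and less of its RNA per cell cannot be told apart. All 129 had the same sign without and with DOX, and in 125 the levels of the 2 clones did not overlap, where 38.7% of all genes tested did not overlap. Both counts follow in part from the test, which calls genes that differ alike in both treatments. The number called depended on the libraries used: in a fit of the other 5 libraries, with WT37 among them, it was 36 and 47 without the WT2 library without and with DOX, and 367 and 221 without the WT5 library without and with DOX. It was 35 with DESeq2 and 26 with no filter on low counts, and all 129 genes kept their sign in both. Values given below for a gene with 1 library left out come from that fit of the other 5.

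The plot of one treatment against the other shows how much of a difference seen in 1 pair of libraries was found again in the other pair. Chosen at 2-fold or more without DOX alone, 223 genes were higher in WT5, and with DOX 181 of them had the same sign and 81 the same 2-fold difference. For the 178 genes lower by 2-fold or more without DOX, the counts with DOX were 121 and 43. Read the other way, of 267 genes higher with DOX, 184 had the same sign and 81 the same fold without it, and of 230 lower genes 154 and 43 did. In each reading, the genes higher in WT5 kept their sign in 68.9% to 81.2% of cases and the lower ones in 67.0% to 68.0%. Across the 11227 genes the differences in the 2 treatments had a Pearson's r of 0.29, a description, since genes are not independent replicates and all values come from the same clones.

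**Figure D1:**
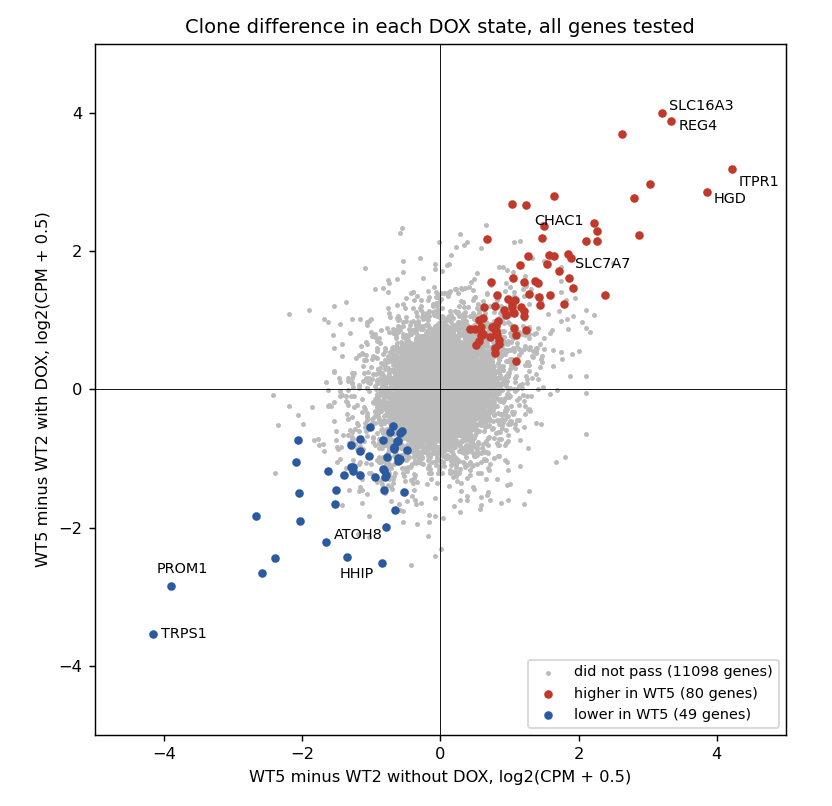
Each point is 1 of 11227 genes, with WT5 minus WT2 in the libraries without DOX on the horizontal axis and with DOX on the vertical axis, both as log2(CPM + 0.5). The 80 genes higher in WT5 (red) lie at the upper right and the 49 lower genes (blue) at the lower left, with SLC16A3, REG4, ITPR1 and HGD farthest out on one side and TRPS1 and PROM1 on the other.

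SLC16A3 had the smallest p of all genes. It encodes MCT4, the carrier that exports lactate from cells with high glycolysis (ENSG00000141526, chromosome 17, 82228397 to 82261129, plus strand). Its level was 20.8 and 13.97 CPM in WT2 and 197 and 231 CPM in WT5. The clones were far apart in both treatments, with a log2 fold change of 3.63 ± 0.19 SE (edgeR adjusted p = 4.71e-09). CSNK1D lies opposite SLC16A3, and AC132872.3 and AC132872.4 overlap it on its own strand (strand use in counting: not given in the sources used here). Together the genes overlapping SLC16A3 had 1240 reads in WT2 and 1510 in WT5, where SLC16A3 had 193 and 2805.

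REG4, a secreted lectin of intestinal secretory cells (ENSG00000134193, chromosome 1, 119794018 to 119811660, minus strand), had 1.54 and 0.986 CPM in WT2 and 20.1 and 21.4 CPM in WT5 (log2 fold change 4.03 ± 0.34 SE, edgeR adjusted p = 5.01e-06). ITPR1, the inositol trisphosphate receptor that releases calcium from the endoplasmic reticulum (ENSG00000150995, chromosome 3, 4493345 to 4847840, plus strand), had 0.385 and 0.986 CPM in WT2 and 15.9 and 13.1 CPM in WT5 (4.31 ± 0.43 SE, adjusted p = 2.67e-05). HGD, homogentisate dioxygenase of tyrosine breakdown (ENSG00000113924, chromosome 3, 120628173 to 120682571, minus strand), had 0.385 and 0.986 CPM in WT2 and 12.3 and 10.3 CPM in WT5 (3.94 ± 0.45 SE, adjusted p = 0.000115). All 3 genes were near the limit of detection in WT2, with 14 reads for REG4 and 8 each for ITPR1 and HGD in its 2 libraries together, so the size of the fold is less certain than its direction. SLC7A7, the light chain of a transporter of cationic and neutral amino acids (ENSG00000155465, chromosome 14, 22773222 to 22829820, minus strand), was well measured in both clones, at 20.2 and 19.4 CPM in WT2 and 74.4 and 76.6 CPM in WT5 (1.93 ± 0.17 SE, adjusted p = 7.78e-06). Its 2 libraries of each clone differed by little beside the gap between clones.

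Further genes with large differences in the higher direction serve adhesion, signalling and glycan synthesis. PCDH7, a protocadherin, had 0.193 and 0.493 CPM in WT2 and 4.32 and 6.27 CPM in WT5. CRTAM, a receptor first known from activated T and NK cells, had 2 reads in WT2 and 72 in WT5, or 0.177 CPM (95% Poisson interval 0.0215 to 0.641) against 5.52 CPM (4.32 to 6.95), intervals that cover counting error only. Without the WT2 library without DOX, its fitted log2 fold change went from 4.79 to 8.07, since the remaining WT2 library had none of its reads. RASGRF2, an exchange factor for Ras, had 8.09 and 5.09 CPM in WT2 and 23.7 and 28.2 CPM in WT5 (1.99 ± 0.26 SE, adjusted p = 0.000377). PHLDA3, a target of p53 that restrains AKT, had 1.93 and 2.79 CPM in WT2 and 11.1 and 15.7 CPM in WT5 (2.49 ± 0.33 SE, adjusted p = 0.000377). The rest of the 14 largest differences among genes with at least 5 CPM in WT5 were RNF152, an E3 ubiquitin ligase of lysosomes, the proteoglycan CSPG5, BRME1, a protein of meiotic recombination, the Wnt pathway factor TCF7L1, GCNT3, which branches mucin glycans, and KISS1R, the kisspeptin receptor. Their log2 fold changes lay between 1.96 for KISS1R and 2.61 for RNF152. The log2 fold changes of BRME1 and KISS1R, 2.14 and 1.96, became 1.36 and 1.26 when WT5 with DOX was left out. That of KISS1R became 2.97 when WT5 without DOX was left out. With 1 library of WT5 left, the fit takes the effect of DOX from WT2 and WT37. In WT2, WT37 and WT5, log2 levels changed with DOX by -1.53, -1.71 and -0.10 for KISS1R and by -0.60, -0.055 and 1.05 for BRME1. Whether the clones differ in this change was not tested. GCNT3, RASGRF2, TCF7L1 and BRME1 each lie opposite another annotated gene. The one opposite GCNT3, GTF2A2, had 563 reads in WT2 and 624 in WT5 where GCNT3 had 16 and 75. The one opposite BRME1, CC2D1A, had 110 reads in WT2 and 182 in WT5 where BRME1 had 22 and 120.

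PSAPL1 and SMTNL2 had no read in either WT2 library. PSAPL1 had 32 reads in the WT5 libraries, at least 9.22-fold higher than 3 reads over the WT2 group would give, and SMTNL2 had 22, at least 6.34-fold higher. SMTNL2 was also the gene nearest to the threshold on the inside, with ITPRIPL2 (adjusted p = 0.0477 for each), and GALNT5 and CLIP2 were nearest on the outside (0.0517 for each, log2 fold changes 1.54 and 1.31).

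TRPS1, a GATA-type zinc finger repressor, had the largest difference in the lower direction (ENSG00000104447). It had 8.47 and 11.99 CPM in WT2 and 0 and 0.570 CPM in WT5, or 117 reads against 4 (log2 fold change -5.02 ± 0.56 SE, edgeR adjusted p = 0.000105). Without the WT5 library with DOX, which held all 4 of these reads, the fitted value was -8.77. PROM1, which encodes the surface protein CD133 of stem and progenitor cells (ENSG00000007062, chromosome 4, 15963076 to 16084378, minus strand), had 14.4 and 7.23 CPM in WT2 and 0.498 and 0.570 CPM in WT5 (-4.23 ± 0.47 SE, adjusted p = 0.000105). Neither gene overlapped between the clones, and both were barely detected in WT5.

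HHIP binds hedgehog ligands at the cell surface and blocks their signal (ENSG00000164161, chromosome 4, 144646021 to 144745271, plus strand). Its level was 13.1 and 50.4 CPM in WT2 and 4.82 and 8.97 CPM in WT5 (-2.10 ± 0.26 SE, edgeR adjusted p = 0.000284). ATOH8, a basic helix-loop-helix factor (ENSG00000168874, chromosome 2, 85751344 to 85788066, plus strand), had 7.90 and 38.8 CPM in WT2 and 2.16 and 7.97 CPM in WT5 (-2.16 ± 0.27 SE, adjusted p = 0.000284). In both genes the library with DOX was the higher of its clone, and WT5 with DOX reached about the level of WT2 without it for ATOH8 and stayed under it for HHIP. Without the WT5 library with DOX the log2 fold change of HHIP was -1.09 and did not pass (adjusted p = 0.145), while that of ATOH8 stayed between -2.32 and -1.75 and passed whichever of the 4 libraries was left out. HHIP-AS1 lies opposite HHIP and went from 33 to 10 reads.

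LRG1, a secreted glycoprotein, had 24.5 and 18.6 CPM in WT2 and 8.14 and 5.55 CPM in WT5 (-1.66 ± 0.24 SE, edgeR adjusted p = 0.00111). MAP2, a microtubule-binding protein best known from neurons, had 49.1 and 35.8 CPM in WT2 and 18.3 and 14.95 CPM in WT5 (-1.35 ± 0.19 SE, adjusted p = 0.000638). These 2 genes differed by a similar amount in both treatments and passed in each of the settings that keep all 4 libraries. The other large differences in the lower direction, among genes with at least 5 CPM in WT2, were in SIGLEC15, a sialic acid-binding lectin, SLC22A15, a member of the organic ion transporters, the calcium sensor VSNL1, DBP, FAM13A, the detoxifying aldehyde dehydrogenase ALDH3A1, the gel-forming mucin MUC5AC and METTL7A, with log2 fold changes between -2.12 and -1.37. ALDH3A1 had 40.6 and 162 CPM in WT2 and 23.3 and 40.2 CPM in WT5, so that most of its difference lay in the libraries with DOX. In WT2, WT37 and WT5, log2 levels changed with DOX by 1.49, 1.55 and 0.41 for METTL7A and by 1.39, 0.78 and -0.28 for SIGLEC15. For VSNL1 the changes were -0.71, -1.58 and 0.33, for MUC5AC -0.85, -1.29 and 0.47, and for ALDH3A1 1.98, 1.13 and 0.78. Whether the clones differ in this change was not tested. Several of the log2 fold changes between clones depended on which library was left out, since the fit then takes the effect of DOX from the other clones. Leaving out WT2 with DOX changed ALDH3A1 from -1.48 to -0.90. Leaving out WT5 with DOX changed METTL7A from -1.37 to -0.71 and SIGLEC15 from -2.12 to -1.27, and leaving out WT5 without DOX changed VSNL1 from -1.72 to -0.95 and MUC5AC from -1.46 to -0.66.

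**Figure D2:**
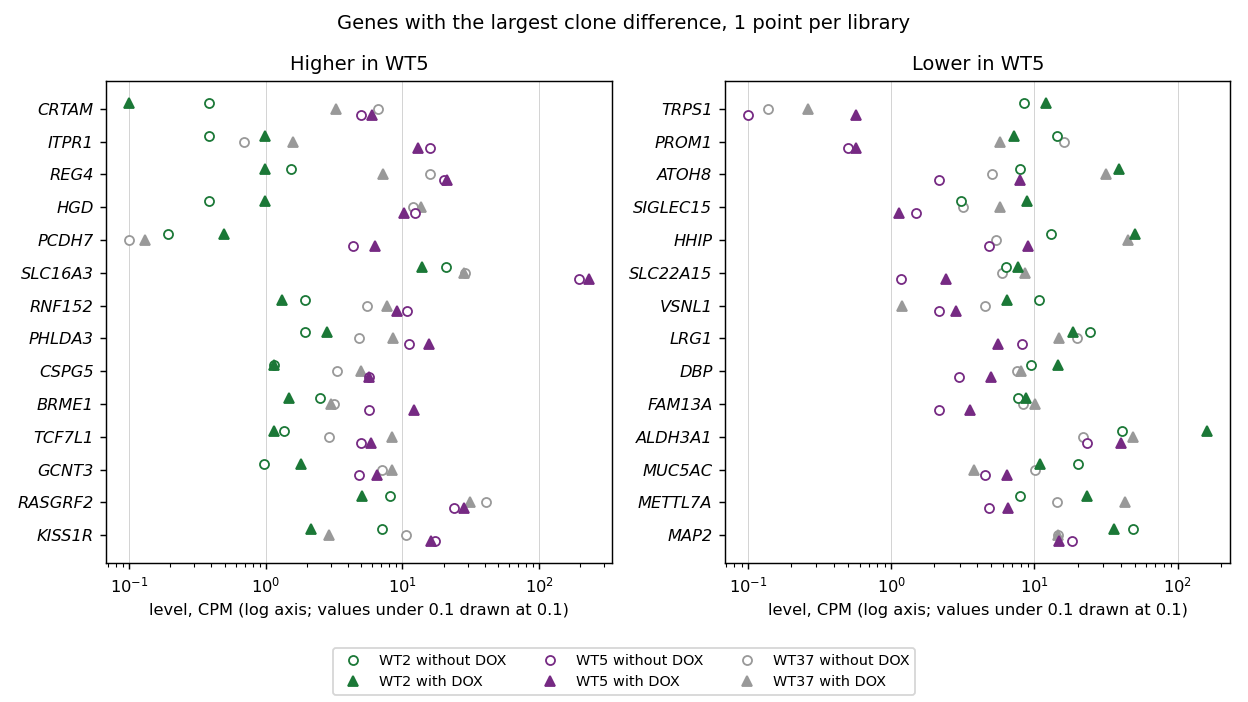
Levels in CPM on a log axis for the 14 genes with the largest difference in each direction among those with at least 5 CPM in the higher clone, 1 point per library, open for libraries without DOX and filled for those with DOX; values under 0.1 CPM are drawn at 0.1. SLC16A3 stands at 197 and 231 CPM in WT5 against 13.97 to 20.8 CPM in WT2, and WT37 lies with WT2 for SLC16A3, ITPR1 and PROM1 but with WT5 for HGD and TRPS1.

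In the list of amino acid synthesis, amino acid uptake and the ATF4 program, 9 of 24 tested members were higher in WT5 (37.5%, beside 0.713% of all genes tested) and 0 were lower. All 24 had a log2 fold change above 0, with a median of 0.59, where 5569 of all 11227 genes were above 0 and the median was -0.002. The list was drawn up with earlier results of these clones known. ATF4 itself (ENSG00000128272, chromosome 22, 39519695 to 39522685, plus strand) had 165 and 183 CPM in WT2 and 312 and 405 CPM in WT5 (1.03 ± 0.14 SE, edgeR adjusted p = 0.000377). Both WT5 libraries were above both WT2 libraries for each of the 9 genes, which follows in part from the test that called them. Of all genes tested, 38.7% did not overlap between the clones.

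Among enzymes, ASNS, which makes asparagine (ENSG00000070669, chromosome 7, 97852118 to 97872542, minus strand), had 48.3 and 63.4 CPM in WT2 and 132 and 149 CPM in WT5 (1.33 ± 0.15 SE, edgeR adjusted p = 0.000114). PSAT1 and PHGDH, both of serine synthesis, had log2 fold changes of 0.78 and 0.70 (adjusted p = 0.00709 and 0.0261). CHAC1, which degrades glutathione and carries one of the promoters shown above (ENSG00000128965, chromosome 15, 40952962 to 40956519, plus strand), had 6.36 and 7.39 CPM in WT2 and 18.4 and 35.6 CPM in WT5 (1.94 ± 0.25 SE, adjusted p = 0.000369). Among transporters, SLC7A5, which imports large neutral amino acids as the LAT1 light chain, had 429 and 381 CPM in WT2 and 759 and 980 CPM in WT5 (1.09 ± 0.14 SE, adjusted p = 0.000377). SLC1A5, an importer of glutamine and other neutral amino acids, had 362 and 351 CPM against 520 and 547 CPM (0.58 ± 0.13 SE, adjusted p = 0.0319). Among regulators, TRIB3, a pseudokinase that dampens ATF4 activity, and CEBPB, a partner of ATF4, had log2 fold changes of 0.62 and 0.70 (adjusted p = 0.0354 and 0.0406). Antisense or overlapping genes lie at CEBPB, SLC1A5 and SLC7A5, and those at CEBPB and SLC7A5 had 3 reads or fewer in each clone.

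The 15 members that did not pass had values from 0.18 for WARS1 to 0.83 for VLDLR. DDIT3, the stress factor CHOP, had 3 and 10 reads in WT2 and 10 and 15 in WT5, too few to place it (0.77 ± 0.62 SE). SLC7A11, the cystine importer, had a value of 0.67 with an adjusted p of 0.0903. Over all settings and with any 1 library left out, 22 to 24 members were above 0, at most 1 tested member was below 0, and the median lay between 0.52 and 0.68, whereas the number that passed went from 0 (3 libraries, WT5 with DOX left out) to 15 (5 libraries, WT5 without DOX left out). CARS1, the cytosolic cysteinyl-tRNA synthetase and not a list member, was also higher (0.71 ± 0.14 SE, edgeR adjusted p = 0.0161). It was looked at after the values were seen, and was the 1 of 20 cytosolic aminoacyl-tRNA synthetases that passed (median 0.14). In WT37, 19 of the 24 members lay nearer to WT5 than to WT2; ASNS was at 131 and 149 CPM there and ATF4 at 348 and 365 CPM.

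**Figure D3:**
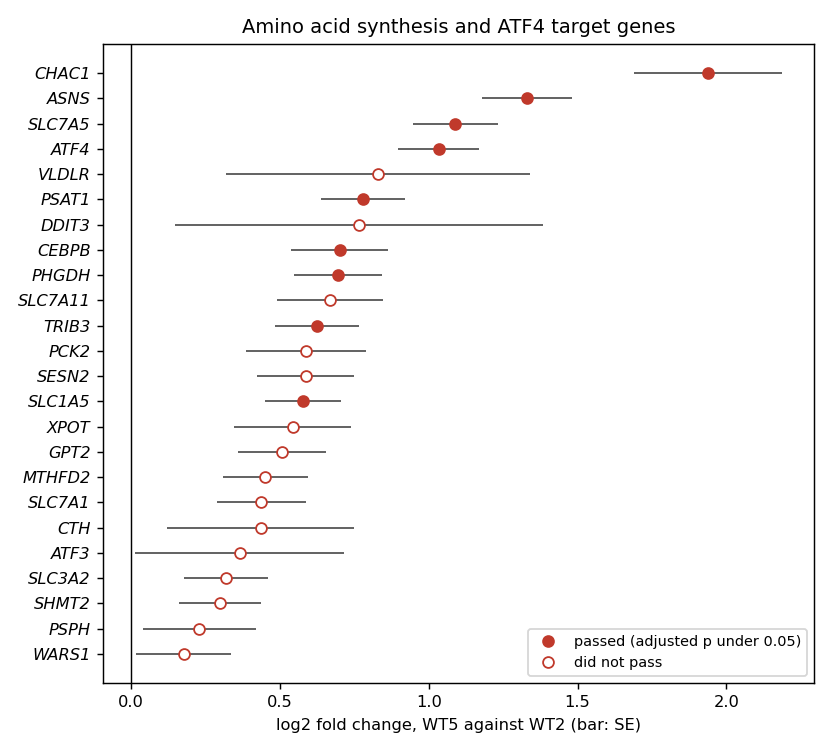
Log2 fold change of WT5 against WT2 for the 24 tested members of the amino acid and ATF4 list, with bars for the standard error; filled points passed at an adjusted p under 0.05. All 24 points lie above 0, from 0.18 for WARS1 to 1.94 for CHAC1, and 9 are filled.

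Of 25 tested genes of glycolysis and lactate transport, SLC16A3 was the 1 that passed, 12 were above 0 and the median was -0.07. The values of the list ran from -1.34 for PDK4 to 3.63 for SLC16A3. The enzymes GPI, ALDOA, TPI1, ENO1, PKM and LDHB had log2 fold changes between -0.13 and 0.04 and an SE near 0.12. Other enzymes lay further from 0, with LDHA at 0.22 ± 0.13, HK2 at 0.29 ± 0.15 and PFKL at -0.22 ± 0.15 SE. SLC16A1, the related lactate carrier MCT1, was at -0.10 ± 0.13 SE (adjusted p = 0.888), and BSG, the chaperone of both carriers, at -0.10 ± 0.14 SE. The glucose importer SLC2A1 had a value of 0.58 ± 0.14 SE with an adjusted p of 0.0545, and HK1 a value of 0.51 ± 0.15 SE with an adjusted p of 0.144. The enolase ENO2, which shares its strand with LRRC23, was at -1.01 ± 0.26 SE (adjusted p = 0.073). SLC2A3 had 6 reads in WT2 and 36 in WT5 (2.32 ± 0.66 SE, adjusted p = 0.127). In the hypoxia list, 0 of 18 tested genes passed with edgeR (5 at an unadjusted p under 0.05) and 0 with DESeq2 or limma-voom, and 7 were above 0.

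Among 156 tested solute carriers, 5 were higher (SLC16A3, SLC7A7, SLC16A14, SLC7A5 and SLC1A5) and SLC22A15 was lower, or 3.85% of the list against 1.15% of all genes tested; SLC7A5 and SLC1A5 also stand in the amino acid list. Of 10 tested genes of mucus and goblet cells, REG4 was higher and MUC5AC and the disulfide isomerase AGR2 (-0.62 ± 0.14 SE) were lower, beside 1.15% of all genes called. DESeq2 called REG4 alone of these, and limma-voom REG4 and AGR2. MUC5AC had 20.2 and 11.01 CPM in WT2 and 4.48 and 6.41 CPM in WT5. MUC13, which did not pass, had a value of 0.65 (adjusted p = 0.0971). AGR2 was one of the 4 genes called whose libraries overlapped between the clones, with 270 and 162 CPM in WT2 and 167 and 112 CPM in WT5.

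In the list of Wnt targets and stem cell genes, PROM1 was lower and 15 of 20 tested members were below 0 with a median of -0.19. LGR5 and PROX1 had values of -0.99 and -0.80 without passing, and AXIN2 was at -0.25 ± 0.16 SE. ATOH8 was the one gene of 29 that passed in the list of TGF-beta and BMP signalling, where 19 were below 0 and the median was -0.16; the BMP targets ID1, ID2 and ID3 had values of -0.16, -0.59 and -0.26. In the NRF2-type detoxification list, NQO1 (635 and 1224 CPM in WT2 against 424 and 609 CPM in WT5, -0.80 ± 0.13 SE, adjusted p = 0.00361) and ALDH3A1 were lower. The other 23 tested members did not pass, and HMOX1, GCLC and AKR1C3 had values above 0. In cholesterol synthesis, LSS and TM7SF2, of lanosterol formation and sterol reduction, were lower (-1.23 ± 0.21 and -1.02 ± 0.17 SE). TM7SF2 shares its strand with VPS51.

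Single members passed in other lists. MEST, an imprinted gene expressed from the paternal copy, had 14.8 and 13.1 CPM in WT2 and 40.9 and 33.9 CPM in WT5 (1.41 ± 0.19 SE, edgeR adjusted p = 0.000638), the 1 gene called of 13 imprinted genes tested; COPG2 and MESTIT1 lie opposite it. The cell cycle factor E2F2 (0.81 ± 0.18 SE) was called among 26 genes of DNA replication, the calcium-binding protein S100P (1.13 ± 0.18 SE) among 10 S100 genes, and the zinc finger gene ZNF605 (28 reads in WT2 and 2 in WT5) in the lower direction among 278. With edgeR, 0 genes passed in the lists of epithelial junctions (38 tested, median -0.002), EMT factors and mesenchymal genes (22), keratins and surface proteases (17), interferon response (27), mitosis (25), unfolded protein response (25), DNA repair (29) or HOX genes (21). At an unadjusted p under 0.05 these lists had 5, 4, 7, 5, 2, 3, 5 and 4 genes, and DESeq2 and limma-voom called 0 genes in each. MHC class II genes had few reads, and HLA-DRA went from 5 reads in WT2 to 27 in WT5 without passing (adjusted p = 0.286).

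Small shifts in 1 direction were seen in 2 large lists. Of 76 cytosolic ribosomal protein genes tested, 70 were below 0 with a median of -0.16, and 0 passed. Of 75 tested nuclear genes for subunits of the respiratory chain, 63 were below 0, also with a median of -0.16, and 0 passed. The medians were alike in both treatments, -0.14 without DOX and -0.18 with DOX for ribosomal proteins, and -0.14 and -0.15 for the respiratory chain. Mitochondrial ribosomal proteins had a median of -0.02 over 74 genes. An unadjusted p under 0.05 was reached by 9 genes of ribosomal proteins and 14 of the respiratory chain, and 0 passed with DESeq2 or limma-voom. Of the 129 genes called, 100 were in none of the 40 lists. This count leaves out the lists chosen after the values were seen.

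**Figure D4:**
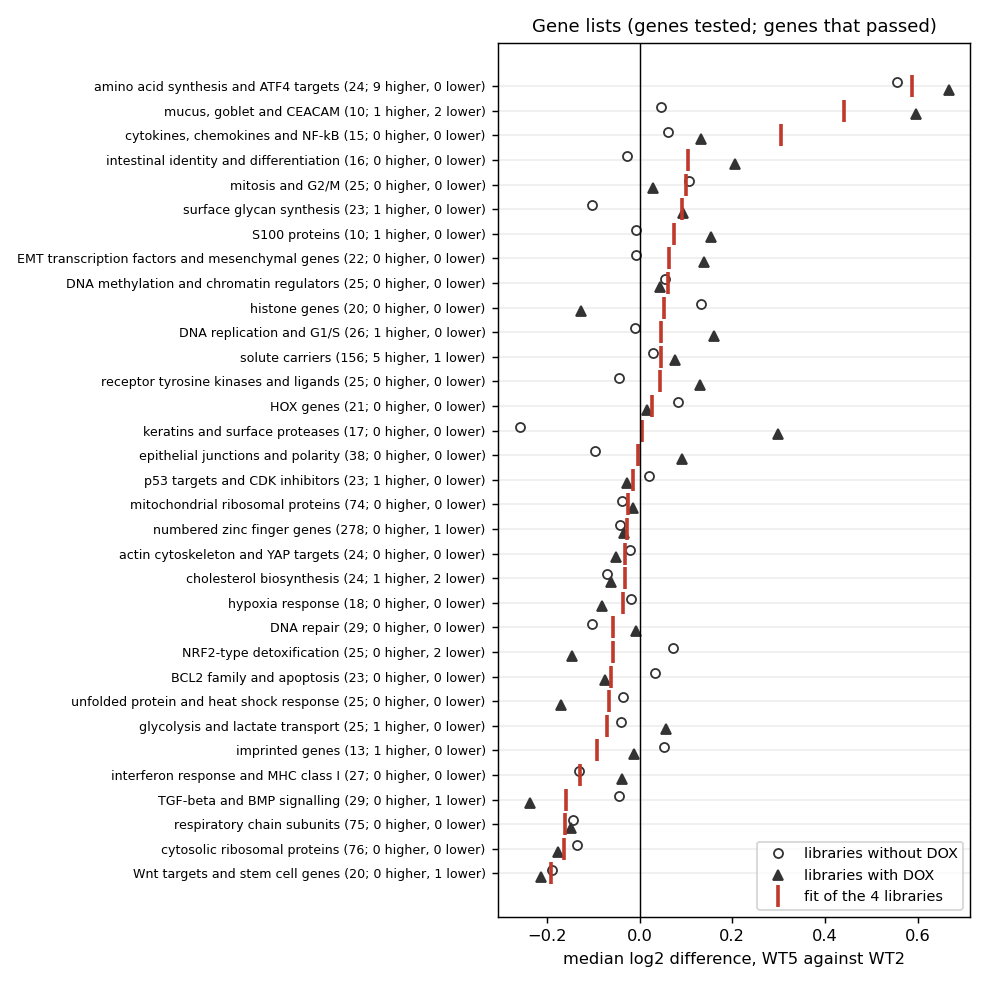
Median log2 difference of WT5 against WT2 for lists with at least 10 tested genes, from the fit of the 4 libraries (red bar) and from the pair of libraries without DOX (open circle) and with DOX (filled triangle). Labels give the genes tested and those that passed in each direction; the amino acid and ATF4 list has the highest median, 0.59, with the values in both treatments close to it.

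WT37 gave a further level for each of these genes. By mean log2 level it lay nearer to WT5 than to WT2 for 50 of the 80 genes higher in WT5 (62.5%) and for 21 of the 49 lower ones (42.9%), beside 49.1% of all genes tested. It was nearer to WT5 for HGD (11.9 and 13.7 CPM), ASNS, CHAC1 (20.5 and 26.5 CPM) and SLC7A7 (77.2 and 52.7 CPM) on the higher side, and for TRPS1 (0.137 and 0.263 CPM) and MAP2 (14.6 and 14.6 CPM) on the lower side. For these genes WT2 was the clone that stood apart. It was nearer to WT2 for SLC16A3 (28.7 and 28.1 CPM), ITPR1 (0.687 and 1.58 CPM), PCDH7 (0 and 0.131 CPM) and PROM1 (16.1 and 5.78 CPM), where WT5 stood apart. HSD3B1, an enzyme of steroid synthesis named after its values were seen, had 0.963 and 4.93 CPM in WT2, 7.14 and 13.5 CPM in WT5 and 18.9 and 110 CPM in WT37, and its paralog HSD3B2 is nearly identical. WT37 lay beyond WT5 for 20 of the higher and 7 of the lower genes.

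**Figure D5:**
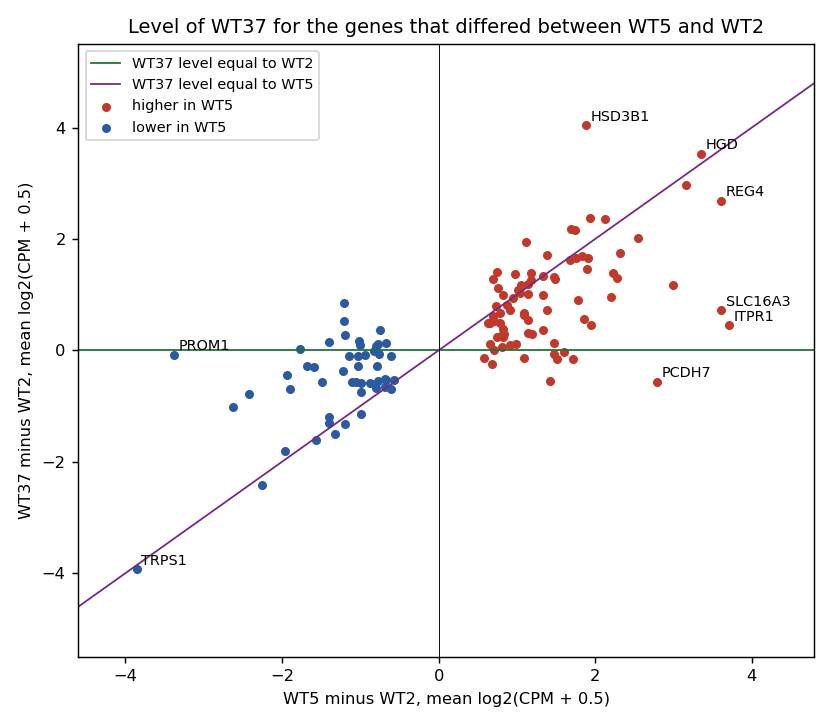
Each point is 1 of the 129 genes called, with WT5 minus WT2 on the horizontal axis and WT37 minus WT2 on the vertical axis, both from mean log2(CPM + 0.5) of 2 libraries. Points on the horizontal line have the level of WT2 in WT37 and points on the diagonal that of WT5; PROM1, SLC16A3, ITPR1 and PCDH7 lie near the former, HGD and TRPS1 near the latter, and HSD3B1 far above both.

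The genes called were spread over the genome. The share called ranged from 0% of 211 tested genes on chromosome 13 to 2.27% of 440 on chromosome 4, with 2.23% of 672 on chromosome 11, and the median log2 fold change of every autosome lay between -0.03 and 0.04. Over 10699 windows of 25 consecutive tested genes the median ranged from -0.22 to 0.24, and its 5th and 95th percentiles were -0.11 and 0.11. With at most 3 tested genes between them, 12 pairs of called genes were neighbours, of which 9 differed in the same direction. HSD3B1, PHGDH and REG4 lie in a row on chromosome 1, with starts at 119507198, 119648411 and 119794018, and all 3 were higher in WT5. SOX12 and TRIB3, 37.2 kb apart on chromosome 20, were both higher, and NUP43 and PCMT1 on chromosome 6 were both lower, although these 2 overlap on opposite strands and cannot be told apart without strand. Neighbours that differed in opposite directions were HERC5 and FAM13A, VPS13C and TLN2, and SPNS2 and SMTNL2. An annotated gene overlaps 60 of the 129 genes called, on the same strand in 17, and the counts of these are uncertain to that extent.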

How the data were processed

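Messenger RNA of 6 DLD-1 libraries was measured with QuantSeq 3' FWD libraries, per the labels' protocols, and the 4 of WT5 and WT2 were compared. The deposited table holds raw counts of reads by Ensembl gene, whole numbers that were not normalized. The submitters' processing notes name GRCh38 and DESeq2. Aligner, counter, strand use and annotation: not given in the sources used here. Of 27264 gene rows, 26914 were placed and named with GENCODE 29 on GRCh38, and 26035 lie on autosomes. The 4 rows of unassigned reads (4.29% to 5.25% unmapped, 14.6% to 16.0% with several places, 10.7% to 11.7% outside features and 6.85% to 7.04% ambiguous in the 4 libraries) stayed out of library sizes and tests.

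Counts were tested with edgeR 4.0.16 (quasi-likelihood, TMM, filterByExpr, DOX as covariate, adjusted p under 0.05) in R 4.3.3; limma 3.58.1 and DESeq2 1.42.0 served as alternatives. The fit has 1 residual degree of freedom, so the spread leans on information shared across genes (biological coefficient of variation 11.7%). DOX is also the replicate number, so the covariate is the replicate block. SE is approximate (log2 fold change over the root of F). A pseudocount of 0.5 CPM was used for log2 levels. The script was tested on simulated data. Genes named by rule are, among those that passed with 1 sign in both treatments, the 14 with the largest change each way and at least 5 CPM in the higher clone. The rule also names the 4 smallest p each way, called list members, the glycolysis list, ZEB2, and 2 genes on each side of the threshold. Other genes, such as LGR5, ID2, HMOX1, PER1 and DDIT3, did not pass and are examples from their lists named outside this rule. Promoters came from RefSeq (GRCh38.p14). The comparison, the 40 lists and these rules were chosen with earlier results of these data known. Counting error is large for genes with few reads.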

Additional observations from a re-analysis of the deposited data

How the results depend on the processing

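Beside 129 genes (80 higher, 49 lower), DESeq2 called 35 (21 and 14), no low-count filter 26 (19 and 7), a test against a fold of 1.5 called 31 (22 and 9), and the fit with no replicate block, that is without pairing libraries by DOX, 45 (34 and 11). RLE size factors gave 162, limma-voom 99, the stricter filter 120, all 6 libraries 100, and keeping X, Y and unplaced genes 129, of which 115 were shared. Leaving out 1 library gave 8 to 367 genes, 7 to 221 higher and 1 to 146 lower, where the fits of 3 libraries have 1 library on one side, assumed to vary like the other clone. Genes called kept their sign wherever they were measured, and 17 passed in all 10 fits that keep the 4 libraries, among them SLC16A3, REG4, ITPR1, HGD, TRPS1, PROM1, ASNS, CHAC1, SLC7A7, MEST, LRG1 and MAP2. With 1 library left out of the other 5, 25 of the 129 passed in all 4 fits, 4 in none, and 23 moved by over 1.5 times. Among the genes named by rule, values that changed sign with 1 library left out were of glycolysis genes that did not pass. Their ranges of log2 fold change were ALDOA -0.082 to 0.15, BSG -0.315 to 0.11, ENO1 -0.11 to 0.13, GAPDH -0.317 to 0.044, PDK1 -0.023 to 0.49, PFKL -0.46 to 0.0056, PFKM -0.51 to 0.20, PFKP -0.22 to 0.074, PGAM1 -0.46 to 0.54, PKM -0.25 to 0.033 and SLC16A1 -0.21 to 0.0195. In the amino acid list, 1 tested member was below 0 in each of 4 fits with 1 library left out. The cause of these changes was not tested. Depth limits genes with few reads, such as ZEB2 and DDIT3.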

Other observations

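Lists chosen after the values were seen gave these counts, beside 1.15% of all genes tested that were called. Of 15 tested genes of the circadian clock and its output factors, DBP, TEF and NR1D2 were lower, 0 were higher, and the median was -0.29. DBP had 9.44 and 14.6 CPM in WT2 and 2.99 and 4.98 CPM in WT5 (log2 fold change -1.59 ± 0.30 SE, edgeR adjusted p = 0.0102). TEF and NR1D2 had log2 fold changes of -1.18 ± 0.27 and -0.82 ± 0.19 SE. PER1, which did not pass, was at -0.69 ± 0.20 SE, and BMAL1 and CLOCK were at -0.16 and -0.09. Of the 15, 4 were above 0, the highest BHLHE40 at 1.16 ± 0.49 SE (adjusted p = 0.415). Of these 3, limma-voom called DBP alone and DESeq2 0. SPHK2 lies opposite DBP. Of 34 tested genes of lysosomal enzymes and the proton pump, the glucosidase GAA (-1.25 ± 0.19 SE), the protease CTSD (-0.61 ± 0.12 SE) and the pump subunit ATP6V1B2 (-0.76 ± 0.14 SE) were lower and the mannosidase MAN2B2 (1.21 ± 0.22 SE) was higher. DESeq2 called GAA and CTSD of these, and limma-voom all 4. Of 20 cytosolic aminoacyl-tRNA synthetases, CARS1 was the 1 that passed, 16 were above 0 and the median was 0.14.

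The clone difference itself differed by over 1 on the log2 scale between the treatments in 14 of the 129 genes called, which has no replicate and was not tested. It was larger with DOX for 9, among them KISS1R (1.23 without and 2.67 with), BRME1 (1.03 and 2.69), ALDH3A1 (-0.79 and -1.996), HHIP (-1.35 and -2.43), METTL7A (-0.66 and -1.75) and SIGLEC15 (-0.84 and -2.52), and larger without DOX for 5, namely MUC5AC (-2.06 and -0.74), PROM1 (-3.90 and -2.85), VSNL1 (-2.09 and -1.04), ITPR1 (4.22 and 3.19) and HSD3B1 (2.38 and 1.37).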
